A study of Mus musculus with 4 samples.

Results

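Cytochrome P450 genes other than the best known zonal and bile acid genes were examined in spatial transcriptomes of mouse liver. The gene set comprised every listed symbol made of Cyp, a family number, subfamily letters and a gene number, apart from Cyp2e1, Cyp2f2, Cyp7a1, Cyp7b1, Cyp8b1 and Cyp27a1. The pattern found 74 symbols, 68 remained after these 6 were set aside, and 46 of those reached 50 unique transcript counts (UMIs) over the 4 sections, out of 19465 genes in the matrices. The 46 genes fell into 24 subfamilies, of which Cyp2c and Cyp4f had 7 genes each, Cyp3a had 4, and Cyp2d, Cyp2j and Cyp4a had 3 each. Just inside the limit were Cyp4f39 with 65 UMIs, Cyp2ab1 with 67 and Cyp21a1 with 79. Just outside were Cyp2d12 with 41, Cyp11a1 with 30 and Cyp27b1 with 24. Of the 22 genes outside, Cyp24a1, Cyp2j12, Cyp2j7, Cyp2b23, Cyp2c66 and Cyp11b1 had 0 UMIs.

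P450 enzymes are haem proteins of the endoplasmic reticulum and mitochondria that insert an oxygen atom into their substrates with electrons passed on by a reductase. Families 1, 2 and 3 oxidise drugs, pollutants, steroids and unsaturated fatty acids, family 4 hydroxylates fatty acids and leukotrienes, and other families make or break down steroids, retinoic acid, vitamin D and sterols. Hepatocytes hold most of them, many more around the central than around the portal vein, and several mouse genes of families 2 and 3 are known to differ in level between male and female liver.

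The Visium assay counts UMIs on spots of a slide that each cover several cells, here on formalin-fixed, paraffin-embedded liver. The healthy group was 1 HK2fl/fl mouse given olive oil. The fibrotic group was 2 HK2fl/fl mice given carbon tetrachloride (CCl4), a liver toxicant, and the Hk2-deleted fibrotic group was 1 PDGFRBcreERT2/Hk2fl/fl mouse given CCl4. All 4 mice were labelled male and 5 months old, carried floxed Hk2 (hexokinase 2) and received tamoxifen at 75 mg/kg for 5 days, with a wait of 2 weeks before treatment. CCl4 was injected at 1 µL/g 2 times a week, for 6 weeks in the series' design text and for 4 or 6 weeks in the labels' protocol. The Cre recombinase was driven by the Pdgfrb promoter, which is active in stellate cells and other mural cells and not in hepatocytes. Spots are not replicates, so each section is 1 sample, and only the fibrotic group had replicates.

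Section totals ran from 40585039 to 67479047 UMIs on 2577 to 4134 spots, and the 46 genes took 1.15% of UMIs in healthy liver, 1.10% in the first and 1.30% in the second fibrotic section and 0.984% in Hk2-deleted liver. The 6 hepatocyte markers summed to 114613 to 243927 normalised CPM (UMIs of a gene per 1000000 UMIs, the section total being multiplied by a scaling factor from the whole table). Hk2 was at 2.22, 4.34, 4.02 and 3.21 CPM in the healthy, first fibrotic, second fibrotic and Hk2-deleted sections, a difference between Hk2-deleted and fibrotic that did not pass the test (log2 fold change -0.38 ± 0.33 SE, adjusted p = 1.00). The first fibrotic section stood apart from its label: the 4 Y-linked genes summed to 1.10 CPM there against 136 to 189 CPM in the other sections. A list of 11 measured male-biased liver genes summed to 631 CPM there, against 1519 CPM in the Hk2-deleted, 4332 in the second fibrotic and 4453 in the healthy section. The 7 measured female-biased genes summed to 80.7 CPM there, against 13.1 to 26.8 CPM elsewhere. Many results that rest on this section are therefore given with and without it, though not for every gene called.

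The promoters of 7 genes on which the results turn are shown for the 250 bases before a transcription start, from RefSeq on GRCm38.p6; 36 of the 46 genes matched a window in that table. Searches ran on both strands for GCGTG, the core bound by the Ah receptor (28.2% of all 32851 windows hold it), and for AGGTCA, a half-site of nuclear receptors (14.0% of windows); the motifs do not overlap each other in these windows. The Cyp1 family is shown first, with GCGTG in capitals (CACGC on the other strand). Cyp1a1 lay at chr9:57697363-57697612 on the plus strand, Cyp1a2 at chr9:57683656-57683905 on the minus strand and Cyp1b1 at chr17:79715062-79715311 on the minus strand.
Cyp1a1: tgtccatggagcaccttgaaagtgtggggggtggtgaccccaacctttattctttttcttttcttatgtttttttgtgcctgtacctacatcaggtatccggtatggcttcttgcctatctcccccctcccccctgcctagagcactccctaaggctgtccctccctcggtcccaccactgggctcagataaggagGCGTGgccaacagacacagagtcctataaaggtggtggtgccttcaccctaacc
Cyp1a2: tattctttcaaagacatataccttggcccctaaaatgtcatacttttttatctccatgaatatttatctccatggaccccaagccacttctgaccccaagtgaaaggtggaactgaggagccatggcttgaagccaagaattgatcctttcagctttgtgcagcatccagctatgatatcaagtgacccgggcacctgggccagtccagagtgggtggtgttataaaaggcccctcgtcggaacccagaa
Cyp1b1: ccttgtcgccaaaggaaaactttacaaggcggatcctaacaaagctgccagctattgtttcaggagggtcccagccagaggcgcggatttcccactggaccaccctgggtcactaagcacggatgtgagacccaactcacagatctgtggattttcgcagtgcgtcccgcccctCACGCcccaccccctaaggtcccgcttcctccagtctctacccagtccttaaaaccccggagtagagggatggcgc
Cyp1a1 held 1 match, whose first base lay 54 bases before the start, Cyp1b1 held 1 at 76 bases, and Cyp1a2 held 0.

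The genes lie at chr9:57687928-57703824 for Cyp1a1, chr9:57676937-57683655 for Cyp1a2 and chr17:79706940-79715061 for Cyp1b1, so that the Cyp1a pair are neighbours.

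The other windows belong to the 4 genes that were highest in the first fibrotic section relative to every other section, with AGGTCA in capitals. They lay at chr7:26061245-26061494 (plus strand) for Cyp2b13, chr19:39886770-39887019 (minus) for Cyp2c69, chr5:145805875-145806124 (minus) for Cyp3a44 and chr7:26306942-26307191 (plus) for Cyp2a4.
Cyp2b13: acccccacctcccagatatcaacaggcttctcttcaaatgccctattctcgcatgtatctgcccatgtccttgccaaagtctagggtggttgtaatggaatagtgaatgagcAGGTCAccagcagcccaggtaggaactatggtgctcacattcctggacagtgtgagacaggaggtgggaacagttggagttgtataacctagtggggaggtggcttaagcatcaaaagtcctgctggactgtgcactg
Cyp2c69: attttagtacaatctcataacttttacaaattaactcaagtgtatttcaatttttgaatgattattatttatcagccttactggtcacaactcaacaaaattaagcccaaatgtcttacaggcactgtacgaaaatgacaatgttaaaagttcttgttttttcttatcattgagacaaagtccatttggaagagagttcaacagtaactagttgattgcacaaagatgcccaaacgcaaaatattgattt
Cyp3a44: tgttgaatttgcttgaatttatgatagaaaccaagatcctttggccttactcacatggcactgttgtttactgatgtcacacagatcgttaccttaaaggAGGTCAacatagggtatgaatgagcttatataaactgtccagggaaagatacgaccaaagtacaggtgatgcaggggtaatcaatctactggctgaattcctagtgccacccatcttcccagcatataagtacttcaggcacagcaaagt
Cyp2a4: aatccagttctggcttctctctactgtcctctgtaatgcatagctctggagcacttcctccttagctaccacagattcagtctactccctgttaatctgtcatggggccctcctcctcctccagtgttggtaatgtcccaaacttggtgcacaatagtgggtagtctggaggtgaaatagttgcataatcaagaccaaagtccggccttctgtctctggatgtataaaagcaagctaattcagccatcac
Cyp2b13 held 1 match 138 bases before the start and Cyp3a44 held 1 at 150 bases, while Cyp2c69 and Cyp2a4 held 0. The STAT-type motif TTCNNNGAA, present in 7.02% of all windows, had 0 matches in these 4 genes. Cyp2b13 (chr7:26061388-26096197) and Cyp2a4 (chr7:26307192-26315088) lie on the same chromosome, Cyp2c69 lies at chr19:39842660-39886769 in a cluster of Cyp2c genes and Cyp3a44 at chr5:145773983-145805891. A match is only a stretch of letters, and 7 of the 36 genes matched held AGGTCA. The start used for Cyp1a1, Cyp2b13 and Cyp3a44 lies inside the annotated span of the gene.

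The plot of all 46 genes by section shows how unevenly the sections differed. Levels are comparable between sections for 1 gene, not between genes, because probes of different genes differ in efficiency. All 46 genes had at least 1 UMI in every section. Genes of the Cyp2a, Cyp2b, Cyp2c and Cyp3a subfamilies have near-identical relatives, so probes may not tell every pair apart; Cyp2b9, Cyp2b10 and Cyp2a5 were not analysed here.

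**Figure D1:**
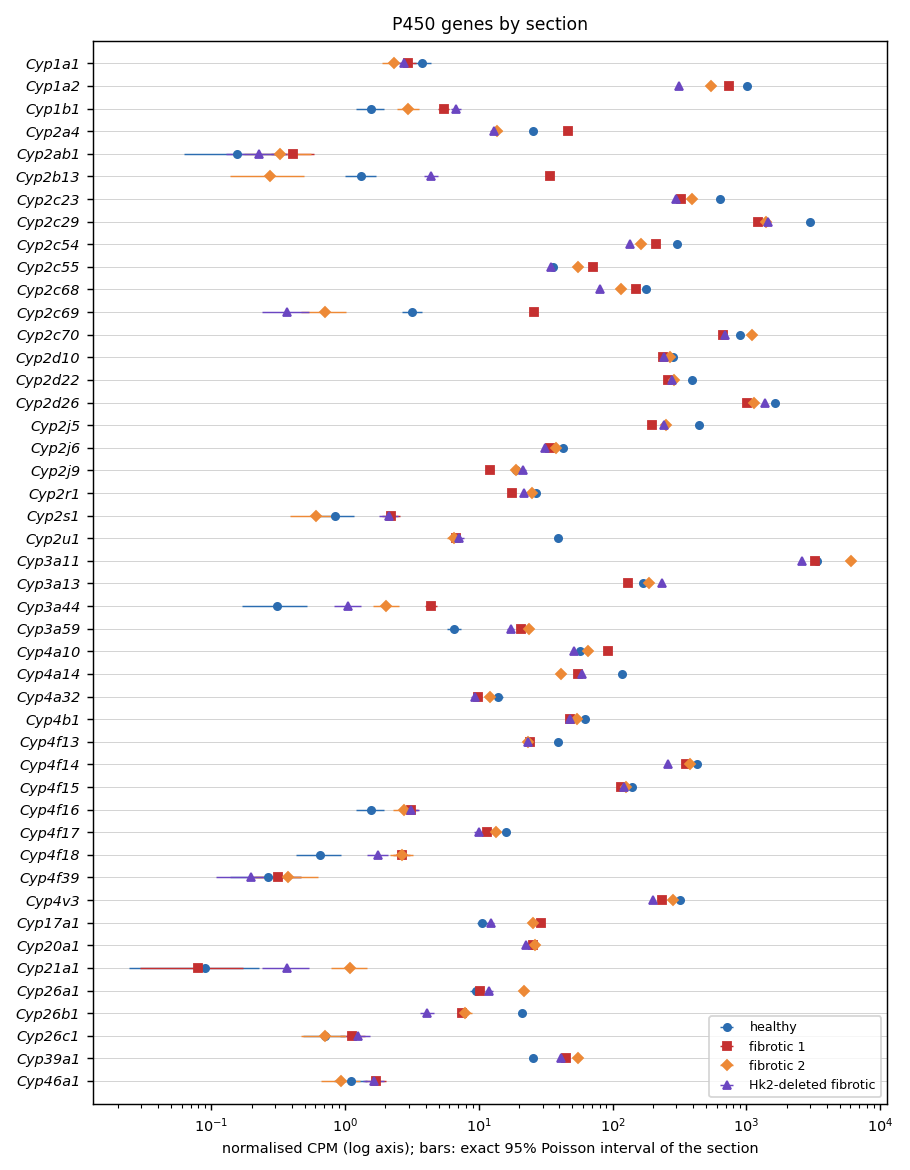
Normalised CPM (log axis) of each of the 46 P450 genes in the healthy, 2 fibrotic and Hk2-deleted fibrotic sections; bars are exact 95% Poisson intervals of 1 section and cover counting error only. Cyp2b13 and Cyp2c69 lie far to the right in fibrotic 1 (34.1 and 26.0 CPM), and Cyp2u1 and Cyp26b1 are highest in the healthy section.

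The first comparison asked which P450 genes differed between CCl4-treated and healthy liver of the same genotype. Cyp3a44, Cyp4f18, Cyp3a59, Cyp1b1, Cyp17a1, Cyp39a1 and Cyp2c55 were higher in both fibrotic sections, and Cyp2u1, Cyp26b1, Cyp4a14, Cyp2j5 and Cyp4f13 were lower in both. Cyp2b13 was also called higher, on the first fibrotic section alone (34.1 CPM); the second, at 0.276 CPM, lay below the healthy 1.31 CPM. These 8 and 5 of 46 genes tested compare with 9.64% of all 14125 genes called higher and 4.01% called lower, by edgeR's quasi-likelihood test at a Benjamini-Hochberg adjusted p under 0.05. Both counts are above the share of all genes, on a set chosen with these data known. The median log2 fold change was -0.12 over the 46 genes and 0.00 over all genes. The spread in this test comes from the fibrotic pair alone, so the single healthy section was assumed to vary like them. With the second fibrotic and the Hk2-deleted section as the CCl4 group, leaving out the first fibrotic section, 3 genes were higher and 8 lower (8.59% and 4.95% of all genes), and all 3 and 5 of the 8 were among the calls above. In spots, fewer cells of a type and less RNA per cell cannot be told apart.

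**Figure D2:**
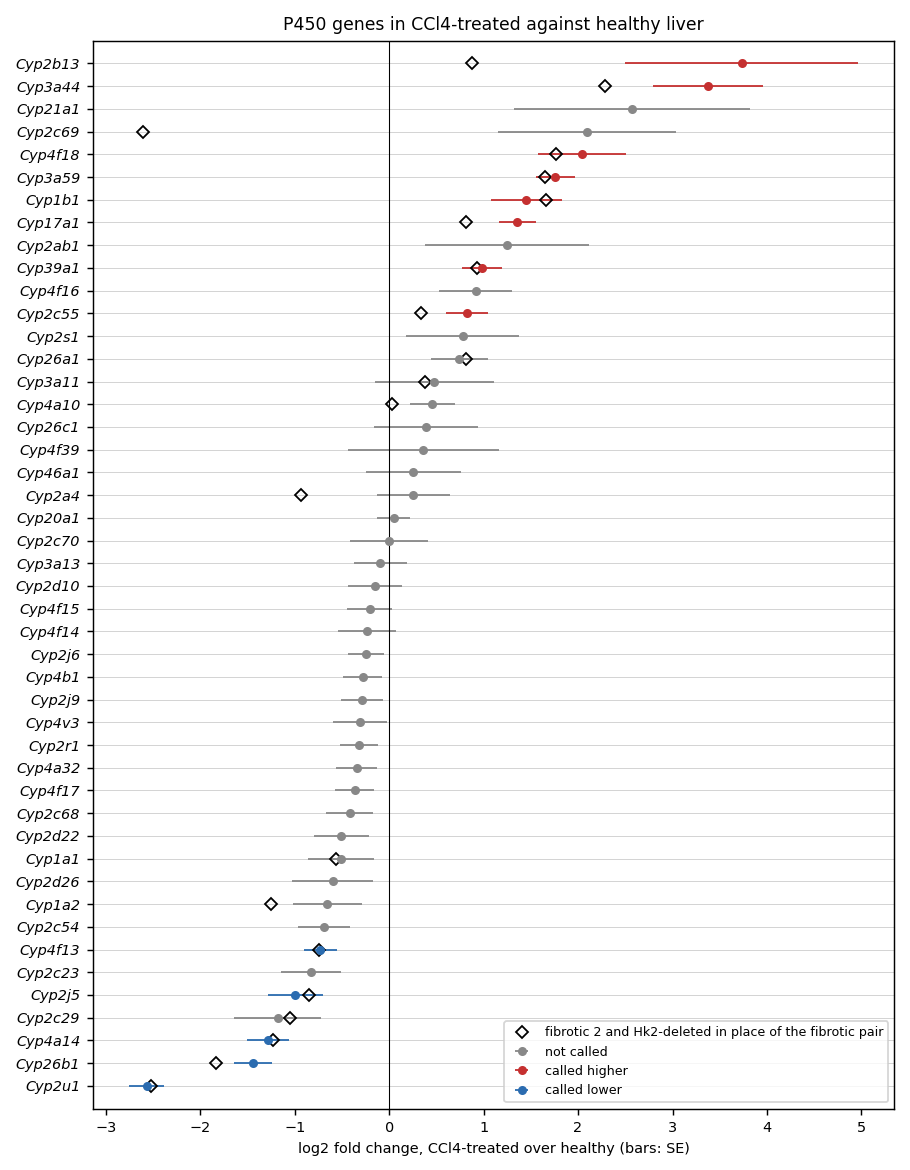
Log2 fold change of fibrotic over healthy liver for 46 P450 genes, with SE; red and blue points passed the test. Open diamonds, drawn for 21 genes, give the value with fibrotic 2 and the Hk2-deleted section as the CCl4 group, where Cyp2c69 (-2.61) and Cyp2a4 (-0.94) lie on the other side of 0.

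In family 1, whose members oxidise aromatic compounds, Cyp1a2 and Cyp1b1 pointed in different directions. Cyp1a2, which metabolises caffeine and aromatic amines, was at 1015 CPM in the healthy section, 745 and 542 CPM in the fibrotic pair and 313 CPM in the Hk2-deleted section. All 3 CCl4-treated sections lay below the healthy one, but the difference did not pass the test (-0.66 ± 0.37 SE, adjusted p = 0.256; -1.25 ± 0.35, adjusted p = 0.0621, without the first fibrotic section). Cyp1a1, the gene most often used as a readout of the Ah receptor, was at 3.78, 2.96, 2.34 and 2.73 CPM in the healthy, first fibrotic, second fibrotic and Hk2-deleted sections and was not called (-0.51 ± 0.35, adjusted p = 0.367). Cyp1b1, which oxidises oestrogens and is known from mesenchymal cells, was at 1.56 CPM in the healthy section and at 5.48, 2.96 and 6.76 CPM in the other 3. No CCl4-treated section overlapped the healthy one, and Cyp1b1 rose by 1.45 ± 0.38 (log2, SE; adjusted p = 0.0136), a call that ended without the first fibrotic section (1.66 ± 0.50, adjusted p = 0.0746) and in DESeq2 (adjusted p = 0.0645). The 7 stellate cell and fibroblast markers summed to 334 CPM in the healthy section and 1151 to 1807 CPM in the CCl4-treated ones, and their part in the Cyp1b1 difference was not tested.

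In the Cyp2c subfamily, which makes epoxides of arachidonic acid and oxidises many drugs, the 7 genes together were at 5018 CPM in the healthy section and at 2683, 3234 and 2695 CPM in the first fibrotic, second fibrotic and Hk2-deleted sections. The CCl4-treated sections were lower in this sum, although 0 of the 7 genes was called lower. Cyp2c29 had the most UMIs of the 7 in every section, which need not make it the most abundant transcript, since probes differ in efficiency. It was at 2974 CPM in healthy liver and 1226, 1401 and 1461 CPM in the others. Its log2 fold change of -1.18 ± 0.46 missed the threshold in edgeR (adjusted p = 0.0971). DESeq2 called Cyp2c29 lower (adjusted p = 2.96e-05). Cyp2c70, which makes the muricholic acids of mouse bile, was at 892, 675, 1107 and 687 CPM in the same order and differed more within the fibrotic pair than between groups (0.00 ± 0.41). Cyp2c55 was the 1 gene of the subfamily called higher, at 35.7 CPM in healthy and 70.9 and 55.5 CPM in fibrotic liver (0.82 ± 0.22, adjusted p = 0.0169). The Hk2-deleted section held 34.9 CPM, close to the healthy level, and the call ended when it took the place of the first fibrotic section (0.34 ± 0.26, adjusted p = 0.411).

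Of the other family 2 genes, Cyp2u1 had the clearest difference. Cyp2u1, which hydroxylates long-chain fatty acids, was at 39.4 CPM in the healthy section and at 6.77, 6.53 and 7.11 CPM in the first fibrotic, second fibrotic and Hk2-deleted sections. The 3 CCl4-treated sections were close to each other and far below the healthy one, and the gene fell by 2.56 ± 0.19 on the log2 scale (SE; adjusted p = 2.52e-08). It was also the 1 gene of the 46 at least 4-fold above every other section in the healthy section, where 0.185% of 13489 genes with 50 or more UMIs stood so. Cyp2j5, an epoxygenase of arachidonic acid, was at 446 CPM in healthy liver and at 196, 251 and 242 CPM in the others, and fell by 1.00 ± 0.29 (adjusted p = 0.0268). Its relatives Cyp2j6 (-0.24 ± 0.19) and Cyp2j9 (-0.28 ± 0.22) were not called. The 3 Cyp2d genes, which oxidise basic drugs, had values of -0.60 to -0.15 and none passed the test; Cyp2d26 was at 1627 CPM in healthy liver and 1011 to 1376 CPM in the other sections. Cyp2r1, a vitamin D hydroxylase, was at 26.6 CPM in healthy and 17.7 to 25.0 CPM in CCl4-treated liver (-0.32 ± 0.20, adjusted p = 0.325).

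In the Cyp3a subfamily, which oxidises drugs, bile acids and steroids, 2 of 4 genes were higher. Cyp3a59 was at 6.51 CPM in the healthy section and at 20.5, 23.6 and 17.3 CPM in the first fibrotic, second fibrotic and Hk2-deleted sections. All 3 CCl4-treated sections lay above the healthy one, and the gene rose by 1.76 ± 0.21 (adjusted p = 1.01e-05), or 1.65 ± 0.22 without the first fibrotic section (adjusted p = 0.00826). Cyp3a44 was at 0.311, 4.39, 2.04 and 1.06 CPM in the healthy, first fibrotic, second fibrotic and Hk2-deleted sections, with 14, 333, 81 and 75 UMIs. It rose by 3.37 ± 0.58 (adjusted p = 0.000542), and without the first fibrotic section missed the threshold at 2.29 ± 0.62 (adjusted p = 0.0556). Cyp3a11, a target of the pregnane X receptor and the gene of the 46 with the most UMIs (826989), was at 3351 CPM in healthy liver, 3274 and 6064 CPM in the fibrotic pair and 2629 CPM in the Hk2-deleted section. The second fibrotic section alone was high, and the difference did not pass the test (0.48 ± 0.63, adjusted p = 0.667). Cyp3a13 was at 169 CPM in healthy liver and 130, 186 and 236 CPM in the others (-0.09 ± 0.28, adjusted p = 0.865).

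In family 4, the omega-hydroxylases of fatty acids and leukotrienes, directions were mixed. Cyp4a14, a target of PPAR-alpha, was at 117 CPM in the healthy section and at 55.1, 41.0 and 58.7 CPM in the first fibrotic, second fibrotic and Hk2-deleted sections. No CCl4-treated section reached the healthy level, and it fell by 1.28 ± 0.22 (adjusted p = 0.000507). Its relative Cyp4a10, another PPAR-alpha target, was at 57.4 CPM in healthy and 91.7, 65.6 and 51.3 CPM in CCl4-treated liver and was not called (0.46 ± 0.24, adjusted p = 0.221). Cyp4f13 was at 39.2 CPM in healthy liver and at 23.9, 23.4 and 23.4 CPM in the others. It fell by 0.73 ± 0.17 (adjusted p = 0.00700), a call that ended in DESeq2 (adjusted p = 0.0707). Cyp4f18, which inactivates leukotrienes in neutrophils and other leukocytes, was at 0.644 CPM in the healthy section and at 2.65, 2.66 and 1.76 CPM in the CCl4-treated ones. It rose by 2.04 ± 0.46 (adjusted p = 0.00537), on 29 to 201 UMIs a section. The 6 neutrophil markers summed to 21.4 CPM in the healthy section against 473 to 1205 CPM in the CCl4-treated ones, and their part in the Cyp4f18 difference was not tested. The other 5 Cyp4f genes, the main ones being Cyp4f14 and Cyp4f15, had values of -0.37 to 0.92 and none passed the test.

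Among genes of steroids, retinoids and sterols, 2 rose and 1 fell. Cyp17a1, the hydroxylase and lyase of androgen synthesis, was at 10.6 CPM in the healthy section, 29.2 and 25.4 CPM in the fibrotic pair and 12.2 CPM in the Hk2-deleted section. The fibrotic pair was high and the Hk2-deleted section near healthy, with a rise of 1.36 ± 0.20 in fibrotic over healthy (adjusted p = 9.71e-05) that became 0.81 ± 0.39 (adjusted p = 0.206) when the Hk2-deleted section replaced the first fibrotic one. Of markers of steroid-making tissue, Star was at 1.86 to 3.04 CPM and Nr5a1 had UMIs in the first fibrotic section alone, at 0.04 CPM. Cyp39a1, an oxysterol hydroxylase on a route to bile acids, was at 25.3 CPM in healthy liver and 44.9, 54.9 and 41.4 CPM in the others, and rose by 0.98 ± 0.22 (adjusted p = 0.00411). Of the retinoic acid hydroxylases, Cyp26b1 was at 20.9 CPM in healthy liver and 7.51, 7.89 and 4.08 CPM in the others, and fell by 1.44 ± 0.21 (adjusted p = 6.81e-05). Cyp26a1 was at 9.44 CPM in healthy liver and at 10.2, 21.6 and 11.8 CPM in the others, with the second fibrotic section alone high, and was not called (0.74 ± 0.30, adjusted p = 0.113). Cyp20a1, an orphan P450, was at 22.6 to 26.2 CPM in all sections.

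The first fibrotic section was then set against each other section, since it stood apart in sex-biased genes. It had also been named beforehand, with these data known, as a section that may differ in Cyp2b and Cyp2a genes. The comparison is a description of 1 library without replicates, and its count of genes is no independent support for that difference. In that section 2 of the 46 genes were at least 4-fold above every other section, where 8 of 13489 genes (0.0593%) with 50 or more UMIs stood so, and 0 were as far below (0.0519% of all genes). Cyp2b13, of a subfamily whose members are targets of the nuclear receptor CAR, had 59 UMIs in healthy liver, 2587 in the first fibrotic, 11 in the second fibrotic and 312 in the Hk2-deleted section. That is 1.31 CPM (95% interval 0.998 to 1.69), 34.1 CPM (32.8 to 35.5), 0.276 CPM (0.138 to 0.495) and 4.39 CPM (3.92 to 4.91), and no 2 intervals overlap. The first fibrotic level was 7.77 times that of the nearest section and 124 times that of its fibrotic partner. In the first fibrotic section 42.6% of spots had a Cyp2b13 UMI, against 1.86% in the healthy, 0.427% in the second fibrotic and 7.50% in the Hk2-deleted section. These shares rank as the UMI totals do and do not show an even spread within a section.

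Cyp2c69 had 143, 1971, 28 and 26 UMIs in the healthy, first fibrotic, second fibrotic and Hk2-deleted sections. Its levels were 3.18 CPM (95% interval 2.68 to 3.74), 26.0 CPM (24.9 to 27.2), 0.703 CPM (0.467 to 1.02) and 0.366 CPM (0.239 to 0.536). The healthy section was second, and both remaining CCl4-treated sections were below it. The first fibrotic level was 8.19 times the healthy one and 71.0 times the Hk2-deleted one. Cyp3a44 was 2.16-fold above the nearest section, the second fibrotic. Cyp2a4, a steroid hydroxylase, was at 46.6 CPM in the first fibrotic section, 1.84-fold above the healthy section (25.4 CPM) and over 3-fold above the second fibrotic (13.6 CPM) and Hk2-deleted (13.0 CPM) sections. Cyp2b13, Cyp2c69, Cyp3a44 and Cyp2a4 are all known as genes with higher levels in female than in male mouse liver. After Cyp2b13, Cyp2c69 and Cyp3a44, no gene of the 46 was 2-fold above every other section in the first fibrotic section, the next after Cyp2a4 being Cyp4a10 at 1.40-fold and Cyp2c55 at 1.28-fold. The other sections were set apart the same way for comparison. At least 4-fold below every other section lay 0 of the 46 genes in the healthy section (1.81% of all genes) and 0 in the Hk2-deleted section (0.0148%), and 1, Cyp2b13, in the second fibrotic section (0.0741%). At least 4-fold above lay 0 in the Hk2-deleted (0.0519%) and 0 in the second fibrotic section (0.0148%).

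**Figure D3:**
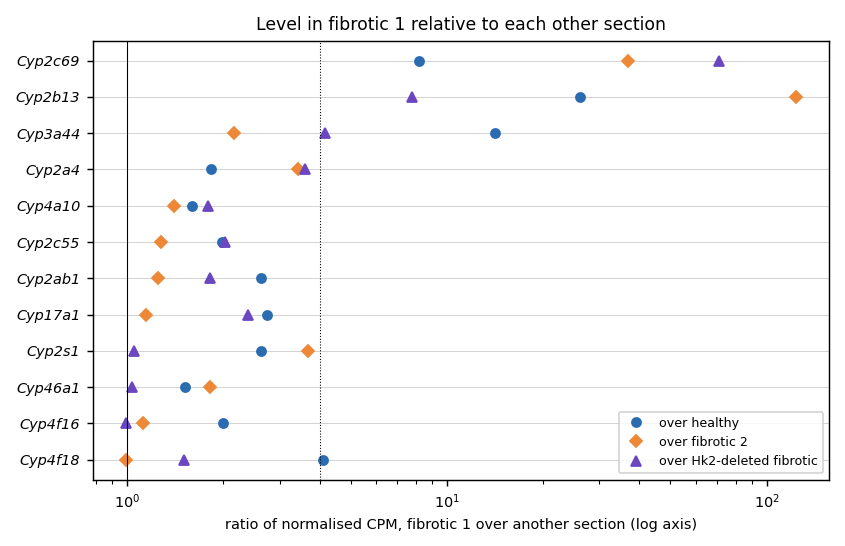
Ratio of the normalised CPM in fibrotic 1 to that in each of the other 3 sections (log axis) for the 12 genes with the highest ratio to the nearest section; the dotted line marks 4-fold. Cyp2c69 and Cyp2b13 are past 4-fold against all 3 sections, Cyp3a44 against 2 and the rest against at most 1.

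The first fibrotic section set the direction of the CCl4 comparison for these genes. Cyp2b13 was called higher in the fibrotic pair by a narrow margin (3.73 ± 1.23, adjusted p = 0.0497), yet it was -2.23 without the first fibrotic section, a value with no test. Cyp2c69 was 2.09 ± 0.94 in the pair (adjusted p = 0.155) and Cyp2a4 was 0.25 ± 0.39 (adjusted p = 0.714). With the second fibrotic and Hk2-deleted sections in place of the pair, both were called lower than in healthy liver, Cyp2c69 at -2.61 ± 0.46 (adjusted p = 0.0174) and Cyp2a4 at -0.94 ± 0.12 (adjusted p = 0.00746), whereas Cyp2b13 was not called (0.88 ± 1.19, adjusted p = 0.642).

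The comparison of the Hk2-deleted with the fibrotic sections, which shares the fibrotic pair with the comparison above, asked whether loss of Hk2 in Pdgfrb-expressing cells went with other P450 levels. Only Cyp17a1 was called among the 46 genes tested by edgeR: it fell by 1.16 ± 0.19 on the log2 scale (adjusted p = 0.0102), with 12.2 CPM in the Hk2-deleted section against 29.2 and 25.4 CPM in the fibrotic pair. Of all genes, 0.142% were called higher and 0.085% lower, or 0.227% in either direction. The value was -1.05 against the second fibrotic section alone and -1.25 against the first alone, neither with a test. No gene of the 46 was called higher by edgeR or DESeq2, and 10 had an unadjusted p under 0.05 in edgeR, as had 443 of all 14125 genes. The median was -0.27 over the 46 genes and -0.01 over all genes. Cyp2c69 (-5.20 ± 1.19, adjusted p = 0.0994) and Cyp2b13 (-1.99 ± 1.05, adjusted p = 1.00) turned on the first fibrotic section, without which they were -0.94 and 3.98. Cyp1a2 was at 313 CPM against 745 and 542 CPM (-1.04 ± 0.39, adjusted p = 0.963), and DESeq2 called it (adjusted p = 0.0471).

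Zones of the lobule were compared next. Spots were ranked within a section by 13 pericentral and 13 periportal landmark genes, none of them a P450 gene, and cut into 3 equal parts, of which the outer ones, called the pericentral and periportal zones, were summed. Over the 4 sections 6 of 43 genes tested were pericentral and 6 periportal (5.66% and 4.98% of all 13109 genes called). Cyp2c55 was at 52.5, 96.2, 85.1 and 53.2 CPM in the pericentral zone of the healthy, first fibrotic, second fibrotic and Hk2-deleted sections, against 22.0, 44.7, 29.0 and 20.8 CPM in the periportal zone. The pericentral zone was higher in all 4 sections, by 1.30 ± 0.08 on the log2 scale (SE; adjusted p = 0.000215). Cyp1a2 was at 1526, 966, 796 and 461 CPM in the pericentral zones against 606, 480, 304 and 198 CPM in the periportal ones. Its ratio was also above 0 in every section (1.23 ± 0.09, adjusted p = 0.000424).

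Cyp2c29 (0.91 ± 0.14, adjusted p = 0.00993), Cyp4a14 (0.90 ± 0.14, adjusted p = 0.00858), Cyp26b1 (0.67 ± 0.16, adjusted p = 0.0382) and Cyp26a1 (0.50 ± 0.11, adjusted p = 0.0301) were the other pericentral genes. Cyp17a1 was the most periportal gene, at 16.3, 52.1, 43.0 and 18.7 CPM in the periportal zones of the healthy, first fibrotic, second fibrotic and Hk2-deleted sections and 5.48, 16.7, 11.4 and 6.34 CPM in the pericentral ones. All 4 sections had about the same ratio, with a log2 value of -1.69 ± 0.08 (adjusted p = 0.000111). Cyp39a1 (-0.75 ± 0.12, adjusted p = 0.00951), Cyp3a13 (-0.69 ± 0.13, adjusted p = 0.0180), Cyp2j9 (-0.51 ± 0.12, adjusted p = 0.0366), Cyp4v3 (-0.47 ± 0.07, adjusted p = 0.00869) and Cyp2c23 (-0.36 ± 0.08, adjusted p = 0.0290) were also periportal. Cyp1a2, Cyp2c55 and Cyp17a1 kept their calls when any 1 section was left out. The counts did not hold: without the healthy section 11 genes were pericentral and 17 periportal (19.6% and 21.2% of all genes), without the first fibrotic section 5 and 1, without the second fibrotic section 2 and 1, and without the Hk2-deleted section 2 and 2. The share of all genes was not counted for the fits that left out a CCl4-treated section.

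Relatives in 1 subfamily could lie in opposite zones. In Cyp2c, Cyp2c29 and Cyp2c55 were pericentral and Cyp2c23 periportal. In Cyp3a, Cyp3a13 was periportal, while Cyp3a11 had a log2 ratio of 0.67 in the healthy section and -0.21, -0.12 and 0.27 in the first fibrotic, second fibrotic and Hk2-deleted sections. The 3 Cyp2d genes had fitted ratios of -0.41 to -0.18 and the 3 Cyp4a genes 0.26 to 0.90.

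**Figure D4:**
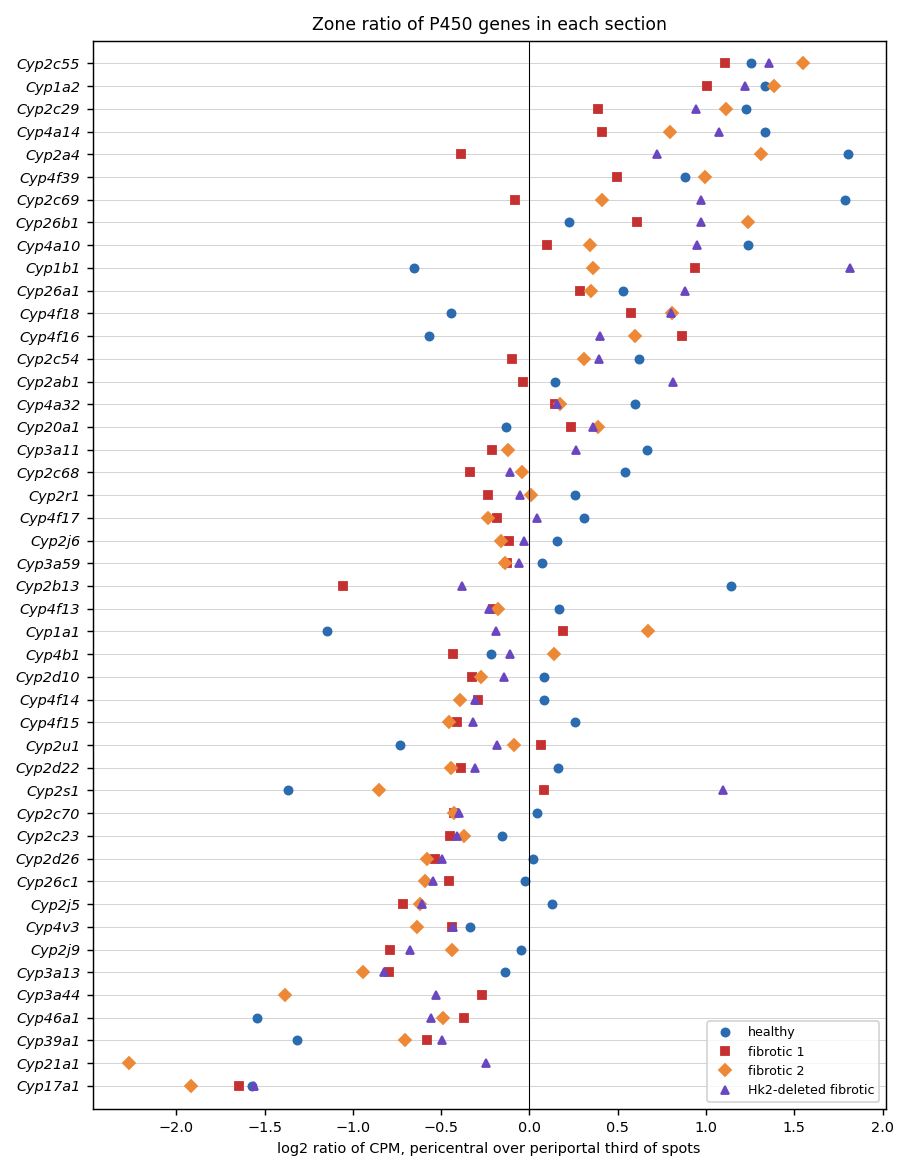
Log2 ratio of CPM in the pericentral over the periportal zone, for each of the 46 P450 genes in each section (a point is left out where a zone had under 3 UMIs). Most healthy points of hepatocyte P450 genes lie to the right of the CCl4-treated ones, while those of Cyp1a1, Cyp1b1, Cyp2u1 and Cyp39a1 lie to the left, and Cyp17a1 (-1.91 to -1.56) and Cyp2c55 (1.10 to 1.55) keep to their sides in all 4 sections.

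The zone ratio differed between fibrotic and healthy liver for many of the genes. In the healthy section 28 of 44 genes with 3 or more UMIs in both zones had more in the pericentral zone, with a median log2 ratio of 0.13. In the first fibrotic section 16 of 45 did (median -0.20), in the second fibrotic 19 of 44 (-0.13) and in the Hk2-deleted section 19 of 45 (-0.11). Of 41 genes with a ratio in all 4 sections, 8 were pericentral in all and 8 periportal in all. A further 11 were pericentral in the healthy and periportal in every CCl4-treated section, and 4 went the other way. Several of the 11 were near even in the healthy section, such as Cyp2d26 (0.017) and Cyp2c70 (0.041). These counts by direction were not made over all genes, so they do not show a shift particular to P450 genes.

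A test of the difference itself, fibrotic minus healthy, called 21 of 46 genes lower (less pericentral) and 6 higher, against 11.2% and 9.15% of all 13376 genes (20.3% in either direction). The median difference was -0.39 over the 46 genes and 0.01 over all genes. The genes called lower included 5 of 7 in Cyp2c, 3 of 3 in Cyp2d, 2 of 3 in Cyp2j, 2 of 4 in Cyp3a, 2 of 3 in Cyp4a and 4 of 7 in Cyp4f. These p-values rest on 1 residual degree of freedom with a spread pooled over all genes, and DESeq2 called 8 lower and 0 higher. With the second fibrotic and Hk2-deleted sections as the CCl4 group, 17 were lower and 6 higher. The share of all genes called in these alternative fits was not counted, so their counts cannot be set against it.

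Cyp2j5 is an example of a change of side. It was at 454 CPM in the pericentral and 416 CPM in the periportal zone of the healthy section, and at 157 and 258, 195 and 299.6, and 193 and 293 CPM in the same zones of the first fibrotic, second fibrotic and Hk2-deleted sections. The ratio was near even in healthy liver and periportal in all 3 others, a difference of -0.81 ± 0.11 (adjusted p = 3.17e-12). Cyp4a10 had log2 ratios of 1.24 in the healthy section and 0.10, 0.34 and 0.95 in the first fibrotic, second fibrotic and Hk2-deleted sections (difference -1.05 ± 0.11, adjusted p = 1.25e-19). It stayed pericentral in all 4. Cyp2a4 ran from 1.80 in the healthy section to -0.39 in the first fibrotic, 1.31 in the second fibrotic and 0.72 in the Hk2-deleted section. Its difference of -1.83 ± 0.15 (adjusted p = 3.87e-32) was -0.51 without the first fibrotic section, with no test. The ratios of the fibrotic pair, -0.39 and 1.31, lie much further apart than this SE. The SE and p-value rest on the spread pooled over all genes more than on this pair. Cyp2b13 was at 1.14 in the healthy, -1.06 in the first fibrotic and -0.38 in the Hk2-deleted section, with too few UMIs in the second fibrotic one (difference -2.22 ± 0.45, adjusted p = 2.35e-05).

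The 6 genes with a higher, more pericentral ratio in fibrotic liver were Cyp1a1 (1.48 ± 0.42, adjusted p = 0.00339), Cyp1b1 (1.39 ± 0.47, adjusted p = 0.0196), Cyp2u1 (0.73 ± 0.19, adjusted p = 0.00120), Cyp39a1 (0.67 ± 0.15, adjusted p = 8.93e-05), Cyp26b1 (0.62 ± 0.21, adjusted p = 0.0177) and Cyp20a1 (0.42 ± 0.15, adjusted p = 0.0287). Cyp1b1 was at 1.27 CPM in the pericentral and 2.00 CPM in the periportal zone of healthy liver, and at 7.21 and 3.76, 3.67 and 2.86, and 13.2 and 3.76 CPM in those of the first fibrotic, second fibrotic and Hk2-deleted sections. The pericentral zone was the higher one in all 3 CCl4-treated sections only. Stellate cell and fibroblast markers summed to 331 CPM in the pericentral and 309 CPM in the periportal zone of healthy liver, against 1684 to 2401 CPM and 653 to 1156 CPM in the CCl4-treated sections; all 7 were called higher in the same test. Hepatocyte markers were lower in the pericentral zone of every section, at 102553 to 189801 CPM against 126000 to 270656 CPM. Their part in the zone differences was not tested.

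Collagen-high spots, the 10% of spots with the largest share of Col1a1, Col1a2 and Col3a1, were compared with all other spots of the 3 CCl4-treated sections. There 26 of 46 genes were lower and 5 higher, against 22.0% and 21.7% of 13493 genes. Cyp1b1 was at 14.6, 8.65 and 32.6 CPM in the collagen-high spots of the first fibrotic, second fibrotic and Hk2-deleted sections and at 4.73, 2.55 and 4.06 CPM in the other spots. It was higher in all 3 sections, by 2.22 ± 0.22 on the log2 scale (adjusted p = 2.18e-06). Cyp2s1, known from epithelia outside the liver, was 1.75 ± 0.30 higher (adjusted p = 0.000256); it was at 5.64 and 8.15 CPM against 1.95 and 1.54 CPM in the first fibrotic and Hk2-deleted sections, but had 2 UMIs in such spots of the second fibrotic section. Of 5 cholangiocyte markers 4 were higher in collagen-high spots, and the list summed to 450, 357 and 370 CPM there against 312, 296 and 276 CPM elsewhere in the first fibrotic, second fibrotic and Hk2-deleted sections. Krt7, the keratin of bile duct epithelium, was picked from this list after the Cyp2s1 values were seen. It was at 29.0, 8.39 and 53.4 CPM against 8.34, 5.76 and 10.4 CPM. Sox9 of the same list was near even, at 17.9, 15.3 and 16.4 CPM against 15.8, 15.5 and 14.6 CPM. The part of cholangiocytes in the Cyp2s1 difference was not tested. Cyp4f18 (0.96 ± 0.22, adjusted p = 0.00246), Cyp4f16 (0.59 ± 0.20, adjusted p = 0.0265) and Cyp2c55 (0.19 ± 0.07, adjusted p = 0.0359) were the other genes called higher.

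**Figure D5:**
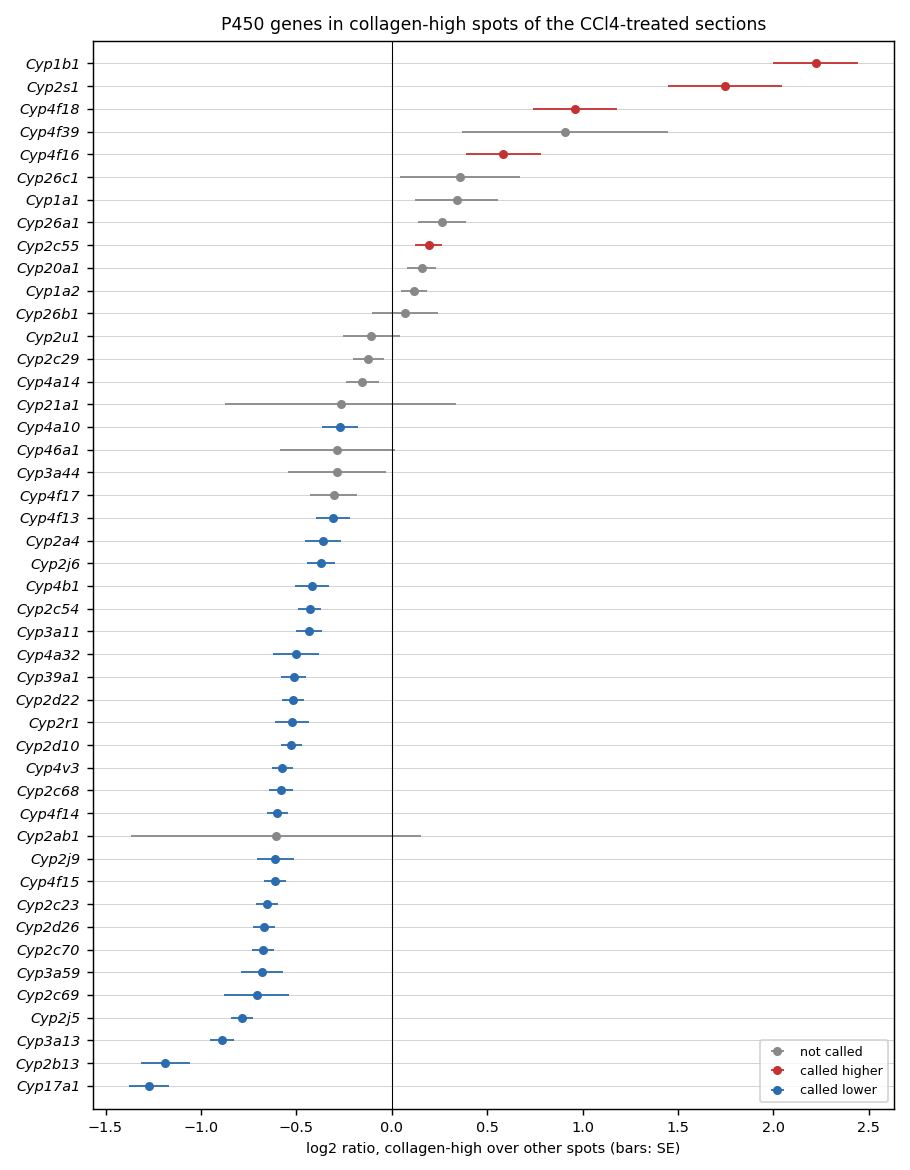
Log2 ratio of collagen-high over other spots in the 3 CCl4-treated sections for 46 P450 genes, with SE; red and blue points passed the test. Cyp1b1 (2.22) and Cyp2s1 (1.75) lead one end and Cyp17a1 (-1.27) and Cyp2b13 (-1.19) the other.

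Cyp17a1 was the lowest in collagen-high spots, at 16.2, 11.95 and 4.86 CPM in the first fibrotic, second fibrotic and Hk2-deleted sections against 34.5, 29.2 and 14.6 CPM elsewhere. It was lower in all 3 sections (-1.27 ± 0.10, adjusted p = 3.57e-07). Cyp2b13 (-1.19 ± 0.13), Cyp3a13 (-0.89 ± 0.06), Cyp2j5 (-0.78 ± 0.06) and Cyp2c69 (-0.71 ± 0.17) followed, and Cyp2c69 was 0.24 ± 0.60 without the first fibrotic section. Of the 4 genes with the highest ratios among those called pericentral, Cyp2c55 was called higher and the other 3 were not called: Cyp1a2 was 0.11 ± 0.07 (adjusted p = 0.190), Cyp2c29 -0.12 ± 0.08 (adjusted p = 0.232) and Cyp4a14 -0.15 ± 0.09 (adjusted p = 0.160). The other Cyp4a genes, also with more CPM in the pericentral zone of every section, were called lower in collagen-high spots, Cyp4a32 at -0.50 ± 0.12 (adjusted p = 0.00347) and Cyp4a10 at -0.27 ± 0.10 (adjusted p = 0.0324). Cyp4a10 was lower there in the fibrotic pair only, and in the Hk2-deleted section it was at 60.6 CPM in these spots against 55.7 CPM elsewhere. All 6 hepatocyte markers were lower in these spots (summed 84976 to 123456 CPM against 131254 to 182158 CPM). Higher were 6 of 6 neutrophil markers (921 to 2567 CPM against 427 to 1148 CPM) and all 7 stellate cell and fibroblast markers (2904 to 4399 CPM against 1004 to 1650 CPM). Col1a1, Col1a2 and Col3a1 on the latter list chose these spots, so their rise was fixed in advance and carries into the sum. Pdgfrb, Lrat, Reln and Dcn did not choose the spots and were higher in each of the 3 sections. Pdgfrb was at 59.8 to 69.2 CPM against 21.1 to 28.8 CPM, and Lrat at 36.3 to 66.3 CPM against 26.7 to 51.6 CPM. The part of cell mixture in these differences was not tested.

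Genes that serve the P450 enzymes were counted from lists. Of 10 electron donors, among them Por, the reductase that feeds microsomal P450 enzymes, and Cyb5a, 0 were called by edgeR in fibrotic against healthy liver (median -0.57), and 4 had an unadjusted p under 0.05. Por was at 386 CPM in the healthy section and 484, 451 and 537 CPM in the first fibrotic, second fibrotic and Hk2-deleted sections (0.28 ± 0.34, adjusted p = 0.638). Of 12 genes of haem synthesis and breakdown 0 were called by edgeR (median -0.37), and 3 had an unadjusted p under 0.05. Of all 14125 genes, 3902 had an unadjusted p under 0.05 in this edgeR comparison. Of 24 regulators of P450 transcription, Nr0b2, a repressor that bile acids induce through the receptor encoded by Nr1h4 (-1.91 ± 0.20, adjusted p = 2.38e-06), and Onecut1, a hepatocyte factor (-0.90 ± 0.27, adjusted p = 0.0284), were lower and 0 were higher, against 4.01% and 9.64% of all genes. Nr1i3, which encodes CAR, was at 150.3, 169, 132 and 159 CPM in the healthy, first fibrotic, second fibrotic and Hk2-deleted sections and Nr1i2, which encodes the pregnane X receptor, at 87.0, 84.5, 86.2 and 84.3 CPM. Bcl6, a repressor known from sex-biased liver transcription, was the 1 regulator called in Hk2-deleted against fibrotic liver, at 95.2 CPM against 23.1 and 30.8 CPM (1.83 ± 0.21, adjusted p = 0.000210).

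Across zones, Ahr, the Ah receptor gene (0.88, adjusted p = 0.000514), and Nr1i3 (0.61, adjusted p = 0.0153) were pericentral, and Esr1 (-0.54), Hnf4a (-0.39) and Onecut1 (-0.36) periportal, 5 of 23 regulators tested, where 5.66% and 4.98% of all genes were called. Of 12 haem genes, Blvrb (0.69), Cpox (0.36) and Alad (0.36) were pericentral and 0 periportal, and of 10 electron donors 0 were called by edgeR, with 4 at an unadjusted p under 0.05. Of all 13109 genes, 3714 had an unadjusted p under 0.05 in edgeR across zones. The zone ratio in fibrotic minus healthy liver was lower for 11 of 24 regulators, 6 of 10 electron donors and 6 of 12 haem genes, and higher for 1, 1 and 2, against 11.2% and 9.15% of all genes. In collagen-high spots 17 of 24 regulators, 9 of 10 electron donors and 3 of 12 haem genes were lower and 0, 1 and 1 higher, against 22.0% and 21.7% of all genes. All 6 hepatocyte markers were lower in the same spots, and their part in these counts was not tested.

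The authors' deposited table of Moran's I, a score of how alike neighbouring spots are, lists all 46 genes in each section. Its values for Cyp1a2 in that deposited table were 0.304, 0.245, 0.257 and 0.238 in the healthy, first fibrotic, second fibrotic and Hk2-deleted sections, and for Cyp2c29 they were 0.371, 0.171, 0.284 and 0.371. For Cyp2b13 the authors' deposited table gives 0.0861 in the first fibrotic section and -0.00864, 0.00756 and 0.0177 in the healthy, second fibrotic and Hk2-deleted ones. The median over the 46 genes in the authors' deposited table was 0.0159 to 0.0202 by section.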

How the data were processed

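Reads of the 4 sections were processed with Space Ranger 2.0.0, per the file headers, and mm10 is the build that the submitters' processing notes name. Which probe set was used is not given in the sources used here. Files deposited by the authors hold whole-number UMI counts per gene and spot over tissue, and a table with a spatial score (Moran's I) per gene, whose UMI totals equalled the sums of the matrices for all genes listed. The median spot held 13665 to 15588 UMIs by section.

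Counts were summed per section, per lobule zone or per collagen-high spots, and tested with edgeR 4.0.16 (quasi-likelihood, TMM scaling, R 4.3.3, filterByExpr) on the whole table. P-values were Benjamini-Hochberg adjusted over all genes tested, with calls at adjusted p under 0.05. Zones rest on the mean z-score of log2(CPM + 1) of 26 landmarks; the section was a block in fits of zones and collagen-high spots. Intervals of levels are exact 95% Poisson intervals. DESeq2 1.42.0 and other scalings, filters and zone scores were alternatives, and the scripts were tested on simulated data. No doublet caller was run, since a spot holds several cells. P-values measure the spread between these sections only, each from 1 mouse. For the zone difference that spread is mostly the one pooled over all genes, not that of the gene itself.

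The genes and lists were chosen with earlier results of these data known. Named genes are those called in a comparison, the gene of each subfamily with the most UMIs, those with extreme ratios of the first fibrotic section or of the zones, those next to the 50 UMI limit and, of the lists, called genes and the most abundant ones. Of the listed genes, Cyp4a12a, Sult3a1, Sult2a1 and Hsd3b1 were not used here. Promoters come from RefSeq on GRCm38.p6, matched by symbol.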

Additional observations from a re-analysis of the deposited data

Results flagged for a closer look

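The zone ratio (log2 of pericentral over periportal CPM) differed between fibrotic and healthy liver for 27 of the 46 genes by a test of the difference itself. Of all 13376 genes, 20.3% were called in either direction. The test had 1 residual degree of freedom and a single healthy section, and DESeq2 called fewer of the 46 genes. The ratio was lower in fibrotic liver, in Cyp2a, Cyp2b and Cyp2c, for Cyp2b13 (-2.22), Cyp2c69 (-1.86), Cyp2a4 (-1.83), Cyp2c68 (-0.76), Cyp2c54 (-0.54), Cyp2c29 (-0.49) and Cyp2c70 (-0.48). In Cyp2d, Cyp2j and Cyp2r it was lower for Cyp2j5 (-0.81), Cyp2d22 (-0.59), Cyp2j9 (-0.59), Cyp2d26 (-0.59), Cyp2d10 (-0.40) and Cyp2r1 (-0.40). In families 3 and 4 it was lower for Cyp4a10 (-1.05), Cyp3a11 (-0.85), Cyp4a14 (-0.79), Cyp3a13 (-0.74), Cyp4f15 (-0.70), Cyp4f17 (-0.53), Cyp4f14 (-0.44) and Cyp4f13 (-0.38). It was higher for Cyp1a1 (1.48), Cyp1b1 (1.39), Cyp2u1 (0.73), Cyp39a1 (0.67), Cyp26b1 (0.62) and Cyp20a1 (0.42). With the second fibrotic and Hk2-deleted sections as the CCl4 group, Cyp2a4 (-0.87, adjusted p = 0.000227 by edgeR) and Cyp2b13 (-1.59, adjusted p = 0.0260) were called and Cyp2c69 (-1.13, adjusted p = 0.219) and Cyp2c29 (-0.21, adjusted p = 0.254) were not. Cyp2b13 had only 4 periportal and 1 pericentral UMIs in the second fibrotic section. It had 103 and 75 in the Hk2-deleted and 18 and 27 in the healthy section, so its value rests in effect on the Hk2-deleted section. Values for that grouping are not given here for the other genes called, some of which varied among the CCl4-treated sections. Cyp2c54 had zone ratios of 0.62 in the healthy, -0.10 in the first fibrotic, 0.31 in the second fibrotic and 0.39 in the Hk2-deleted section.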

How the results depend on the processing

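No paired analysis was possible between groups because only the fibrotic group has more than 1 replicate; zones and collagen-high spots were compared within sections. Leaving out a fibrotic section leaves no residual degrees of freedom in the comparisons with healthy and Hk2-deleted liver and of the zone difference, so those give values with no test. In fibrotic against healthy liver the direction turned when 1 fibrotic section was left out, with ranges of -0.046 (without the second) to 0.86 for Cyp3a11 and, lowest without the first, -2.23 to 4.69 for Cyp2b13, -0.90 to 0.86 for Cyp2a4 and -2.17 to 3.02 for Cyp2c69. It also turned with the second fibrotic and Hk2-deleted sections as the CCl4 group for Cyp2a4 (-0.94) and Cyp2c69 (-2.61), and with all 3 CCl4-treated sections for Cyp2a4 (-0.051). The calls became 3 higher and 8 lower in that first grouping and 3 higher and 7 lower with all 3; DESeq2 gave 6 and 6. Raw CPM moved the median of all genes to 0.34, with 12 genes higher and 5 lower. In Hk2-deleted against fibrotic liver, Cyp2b13 ran from -2.95 without the second to 3.98 without the first fibrotic section, and 6 genes were lower with raw CPM, 6 with no filter and 2 in DESeq2. Across zones, leaving out 1 section gave 2 to 11 pericentral and 1 to 17 periportal genes, and Cyp3a11 ran from -0.041 without the healthy section to 0.26. For the zone difference, higher calls became 3 with RLE size factors, 2 without Oat and Slc1a2 among the landmarks and 0 in DESeq2, which called 8 lower; the cause was not tested. Cyp1a2 ran from -0.34 to 0.040 (without the first fibrotic section) and Cyp2c55 from -0.16 (without the second) to 0.28, neither of them called. In collagen-high spots DESeq2 called 3 genes higher, and Cyp2c69 ran from -0.75 to 0.24 (without the first fibrotic section). Raw CPM, and the zone difference with the second fibrotic and Hk2-deleted sections, were added after seeing the data. Where the text gives no share of all genes beside the calls of an alternative, that share was not counted. Over single genes, in the comparison with healthy liver 147 of the values under alternatives kept direction and call, 16 lost and 12 gained a call, 7 without a test moved and 7 reversed. With Hk2-deleted liver 29 kept both, 8 gained a call, 4 moved and 1 reversed. For zones 124 kept both, 28 lost and 7 gained a call and 1 reversed. For the zone difference 229 kept both, 44 lost a call, 18 moved and 2 reversed, and for collagen-high spots 102 kept both, 8 lost and 1 gained a call and 1 reversed. Low counts limit Cyp21a1, Cyp2ab1 and Cyp4f39, which were not tested for the pericentral against the periportal zone but were tested for the zone difference.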
